A study of Macaca mulatta with 6 samples.

Results

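Cytokines and chemokines are small secreted or membrane-bound proteins through which immune, stromal and blood-forming cells signal to each other, and each acts through a receptor chain on the target cell. Interleukin and interferon receptors signal mostly through Janus kinases and STAT proteins, receptors of the tumour necrosis factor (TNF) family signal through TRAF adaptors and NF-kB, and chemokine receptors couple to G proteins and steer cell migration. Plasma carries many of these proteins, and it also carries fragments of cellular RNA, part of it inside extracellular vesicles (EVs), the membrane-bound particles that cells shed.

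The genes described here are those whose Ensembl rhesus macaque symbol follows the naming of interleukins, CC, CXC, XC and CX3C chemokines and their receptors, TNF superfamily ligands and receptors, colony stimulating factors, interferons, FLT3LG and FLT3. The symbol rule found 193 genes among 24186 genes with a symbol and 35432 genes in all. By role, 105 were ligands, 86 were receptor chains, soluble decoy receptors included, and 2 were neither: IL4I1, an amino acid oxidase, and IL18BP, a secreted binding protein of interleukin 18. The family was chosen by its symbols after the counts of these EV libraries and sums had been seen, and those counts are therefore given as a description, without a test.

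The RNA came from 2 rhesus macaques, named animal A and animal B, whose plasma was separated on a gradient into lipoprotein, EV and protein fractions, with 1 library of each fraction per animal. All samples are labelled as treated with proteinase K, RNase and DNase. The labels give no age, sex, genotype or stress history for either animal, although the series title refers to early life stress. Gene counts were used for the EV library of each animal, called EV A and EV B here, and for a summed column per animal that the authors deposited, called sum A and sum B. Which libraries the sums hold is not stated. Total counts were 10397 for EV A, 2842 for EV B, 62794 for sum A and 54534 for sum B. At a count of 0, the upper limit of the share was 0.0289% for EV A, 0.106% for EV B, 0.00478% for sum A and 0.00550% for sum B. Such limits and all intervals below cover counting error only and are too narrow if the counts include PCR copies. Of 10 vesicle marker genes, 1 had a count in the EV libraries, the tetraspanin gene CD9 with 2 in each. Among genes with a symbol, 2.96% had a count in EV A and 1.4% in EV B. With so few genes detected, these RNA counts cannot check the labelled fraction. Counts were not corrected for transcript length, so they are compared between libraries and not as levels between genes.

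Most of the family was not seen at this depth. Of the 193 genes, 164 had no count in any of the 4 columns and 29, or 15.0%, had at least 1. Among all genes with a symbol, 16.0% had a count in at least 1 of the 4 columns, so the share was near the background. The median count was 0 in every column, for the set as for all genes with a symbol. Where a gene was present, it often had a single count, which was so for 11 of the 22 genes detected in sum A and 11 of the 19 in sum B. Single counts were also common among all genes with a symbol, at 1877 of 3205 detected in sum A and 1527 of 2538 in sum B. Both sums held a count for 12 genes of the family (6.22%), beside 7.88% of genes with a symbol. At least 10 counts were reached by FLT3LG, CCRL2 or IL22RA1 alone, that is by 2 genes in EV A, 2 in EV B, 2 in sum A and 3 in sum B. Of all genes with a symbol, 0.161%, 0.0538%, 0.996% and 0.823% reached that level in the same columns.

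**Figure D1:**
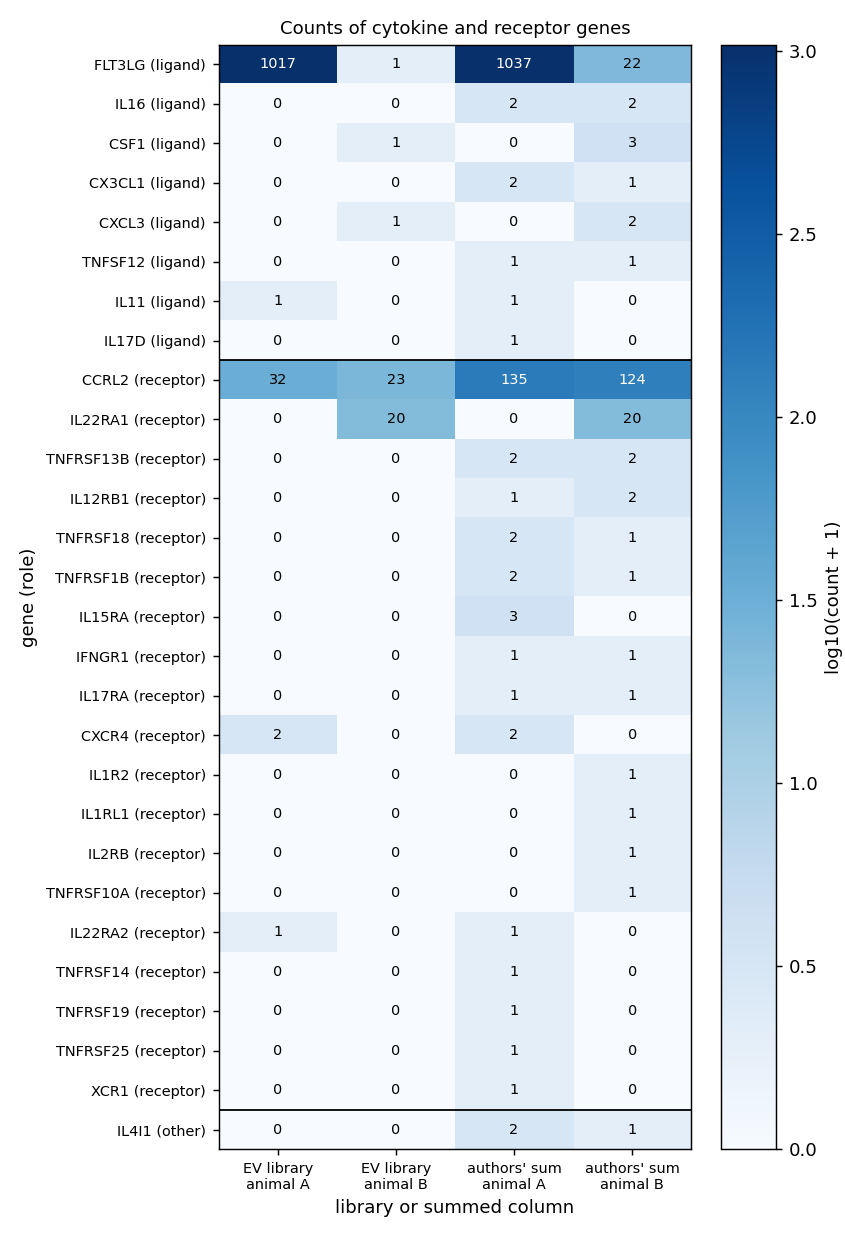
Counts of 28 of the 29 genes with a count (rows, with ligands above receptors) in both EV libraries and both of the authors' sums (columns), with the count printed in each cell and the colour showing log10(count + 1). FLT3LG stands at 1017 in EV A and 1 in EV B, CCRL2 is filled in all 4 columns, and IL22RA1 has its 20 counts in animal B.

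FLT3LG (ENSMMUG00000051892) encodes a growth factor for blood progenitors and dendritic cells that acts through the receptor tyrosine kinase FLT3. It had 1017 counts in EV A, 1 in EV B, 1037 in sum A and 22 in sum B. It was thus high in EV A and in the sum of the same animal. By count it ranked 1 among genes with a symbol in EV A, 95 in EV B, 7 in sum A and 101 in sum B. It made up 9.78% of the counts of EV A (95% Clopper-Pearson interval 9.22% to 10.4%) and 0.0352% of those of EV B (0.000891% to 0.196%). The ratio of these shares, A over B, was 278 (exact conditional interval 49.8 to 10991). Among the 53 features with at least 10 counts in an EV library, 47.2% had an interval above 1 for this ratio and 30.2% an interval below 1. Whether the counts reflect more vesicles with the transcript, more of it per vesicle, or PCR copies cannot be told apart from 1 library per animal. That the reads came from the FLT3LG transcript was not tested.

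The EV count was nearly the whole of the FLT3LG sum in animal A, at 98.1% (97.0% to 98.8%), and 4.55% in animal B (0.115% to 22.8%). With the EV count taken off, sum A kept 20 counts and sum B kept 21. Outside the EV libraries both sums therefore held about as many FLT3LG counts. FLT3, the receptor of this ligand, had 0 counts in all 4 columns. The dendritic cell markers, among them FLT3, had 1 count in EV A, from the transcription factor gene IRF8, and 0 in EV B; 7 of the 8 matched markers were at 0 in both. The lymphocyte markers likewise had 1 count in EV A, from CD4, and 0 in EV B, with 12 of 13 at 0 in both. Their part in the difference of FLT3LG was not tested. In the RefSeq gene order of the T2T-MMU8v2.0 assembly, the nearest named genes on either side of FLT3LG are ALDH16A1 and RPL13A. An unnamed long non-coding RNA gene stands between FLT3LG and ALDH16A1, and a small nucleolar RNA gene follows RPL13A. Neither could be matched by symbol, so their counts are not known. RPL13A, a ribosomal protein gene, had 0 counts in every column, and ALDH16A1, an aldehyde dehydrogenase family gene, had 0 in both EV libraries, 1 in sum A and 3 in sum B.

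**Figure D2:**
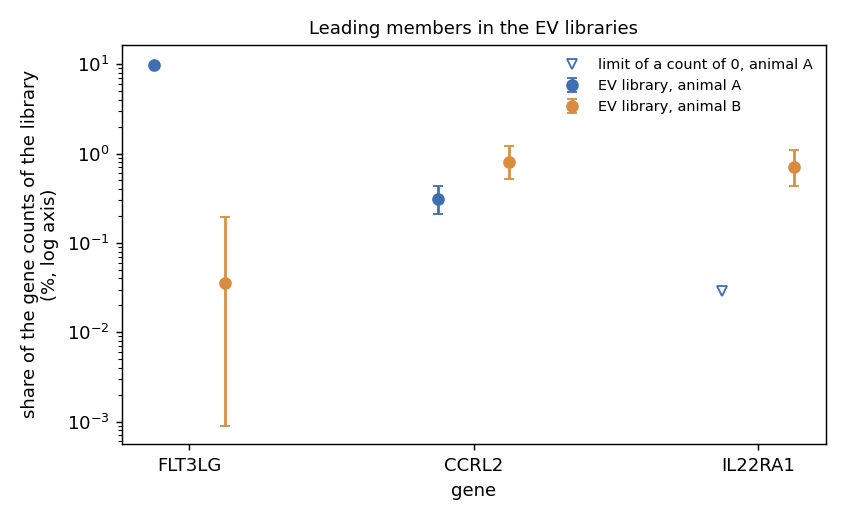
Share of the gene counts of each EV library (log axis, percent) held by FLT3LG, CCRL2 and IL22RA1 in animals A and B, with 95% Clopper-Pearson intervals as bars and an open triangle for the limit set by a count of 0. FLT3LG lies at 9.78% in A and 0.0352% in B, whereas CCRL2 and IL22RA1 lie higher in B.

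Among the receptors, CCRL2 (ENSMMUG00000014260) was the one with counts in both EV libraries. It encodes an atypical, seven-helix receptor that binds chemerin and does not drive migration. It had 32 counts in EV A, 23 in EV B, 135 in sum A and 124 in sum B. Its share was 0.308% of EV A (0.211% to 0.434%) and 0.809% of EV B (0.514% to 1.21%). The share was thus 2.63 times as high in EV B (1.47 to 4.64), although the count was lower there. The EV count was 23.7% of the CCRL2 count of sum A (16.8% to 31.8%) and 18.5% of that of sum B (12.1% to 26.5%), with overlapping intervals. The counts left after the EV count were 103 and 101.

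In the RefSeq order the lactoferrin gene LTF lies next to CCRL2, followed by LRRC2, and both had 0 counts in every column. Chemokine receptors had counts for 4 of 19 genes. CXCR4, the receptor of CXCL12, had 2 counts in EV A, which were also its whole sum of 2 there, and 0 in animal B. XCR1, a receptor of cross-presenting dendritic cells, had 1 count in sum A.

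IL22RA1 (ENSMMUG00000063454) encodes a chain of the receptors for interleukins 20, 22 and 24 and is known for its expression on epithelial cells. It had 0 counts in EV A, 20 in EV B, 0 in sum A and 20 in sum B. All of its counts thus lay in 1 EV library. Its share of EV B was 0.704% (0.430% to 1.08%), which is 24.4 times the limit that 3 counts set in EV A. The ratio of the shares, B over A, had a lower limit of 18.1 in the exact conditional 95% interval. IL22RA2, which encodes a soluble decoy for interleukin 22, had 1 count in EV A, which was its whole sum there, and 0 in animal B. In the RefSeq order IL22RA1 lies between IFNLR1, the receptor gene of the lambda interferons, with 0 counts in every column, and MYOM3, a myomesin gene, with 0 in both EV libraries and 4 and 3 in the sums.

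The EV libraries held few other members. The genes with a count in EV A were FLT3LG, CCRL2, CXCR4, IL11 and IL22RA2, and those with a count in EV B were FLT3LG, CCRL2, IL22RA1, CSF1 and CXCL3. That is 5 of 193 genes, or 2.59%, in each library, beside 2.96% of genes with a symbol in EV A and 1.4% in EV B. Both libraries shared 2 of these genes, FLT3LG and CCRL2, which is 1.04% of the family beside 0.397% of genes with a symbol. IL11, a cytokine of the interleukin 6 family, had 1 count in EV A. CSF1, the growth factor of macrophages, and CXCL3, a neutrophil chemokine, had 1 count each in EV B.

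A few genes therefore set the total of the whole family. Its genes held 1053 counts in EV A, of which FLT3LG gave 96.6%, and 46 in EV B, of which CCRL2 gave 50% and CCRL2 and IL22RA1 together 93.5%. As a share of the library this was 10.1% for EV A (9.55% to 10.7%) and 1.62% for EV B (1.19% to 2.15%), or 5.87% ± 6.02 (SD, n = 2). The share of EV A was 6.26 times that of EV B (4.66 to 8.60). Without FLT3LG the order turned, with 36 counts (0.346%) against 45 (1.58%), and the share of EV B was 4.57 times that of EV A (2.88 to 7.30). Receptors by themselves held 35 counts (0.337%) against 43 (1.51%), and ligands other than FLT3LG held 1 and 2.

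The same 3 genes set the EV part of the sums. Over all 193 genes, EV counts were 87.3% of sum A (85.3% to 89.1%) and 24.5% of sum B (18.5% to 31.3%). Over all genes with a symbol they were 14.1% and 3.0%. Without FLT3LG the share was 21.3% for animal A (15.4% to 28.3%) and 27.1% for animal B (20.5% to 34.5%), so that the intervals of both overlapped. Without FLT3LG and CCRL2, 4 of 34 counts of sum A were EV counts and 22 of 42 counts of sum B, and 20 of those 22 came from IL22RA1. No gene of the family had an EV count above its sum.

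More receptor genes than ligand genes had a count in both of the authors' sums, but most of these shares could not be told from the background. In sum A, 15 of 86 receptor genes (17.4%) and 6 of 105 ligand genes (5.71%) had a count, beside 13.3% of genes with a symbol. In sum B, 12 receptors (14.0%) and 6 ligands (5.71%) had one, beside 10.5%. The exact 95% binomial intervals, which treat genes as independent, were 10.1% to 27.1% for receptors and 2.13% to 12.02% for ligands in sum A, and 7.42% to 23.1% and 2.13% to 12.02% in sum B. They held the background for receptors in both sums and for ligands in sum B, while the ligand interval in sum A ended below it. At a minimum of 2 counts sum A held 7 receptors and 3 ligands and sum B 4 of each, so in sum B the difference in number rested on genes with a single count. In the EV libraries 3 receptors and 2 ligands had a count in EV A, and 2 receptors and 3 ligands in EV B. The difference between the roles was not tested. Which libraries both sums hold is not stated, so whether they are separate measurements is not known.

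**Figure D3:**
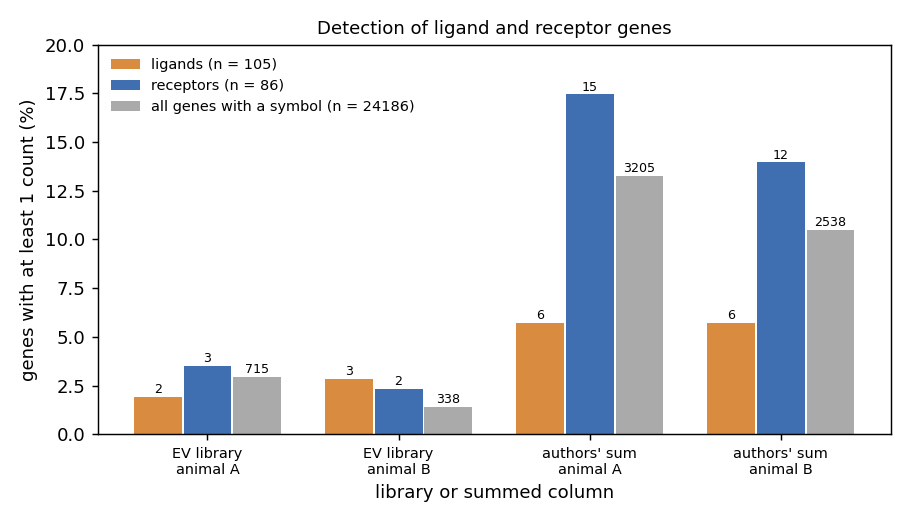
Percent of ligand genes, receptor genes and all genes with a symbol that had at least 1 count in each EV library and each of the authors' sums, with the number of detected genes above each bar. In the sums receptors stand at 17.4% and 14.0% and ligands at 5.71% in both, beside grey bars at 13.3% and 10.5% for all genes with a symbol.

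The background for the families of ligands is the 16.0% of genes with a symbol that had a count in some column. Among ligands, interferons had no count in any column (0 of 12), and TNF superfamily ligands 1 of 10. That gene was TNFSF12, which encodes the cytokine TWEAK, with 1 count in each sum and 0 in the EV libraries. Chemokines were present with 2 of 38 genes. CX3CL1, the membrane-bound chemokine of endothelium and neurons, had 2 counts in sum A and 1 in sum B, and CXCL3 had 0 and 2. Interleukins were present with 3 of 41 genes. IL16, whose product attracts CD4 cells, had 2 counts in each sum, and IL11 and IL17D, an interleukin 17 family gene, had 1 each in sum A alone. Of the 4 growth factor ligands, FLT3LG and CSF1 had counts, CSF1 with 0 in sum A and 3 in sum B. Inflammatory cytokines such as IL1B, IL6 and CXCL8, named after their values were seen, had 0 counts in all 4 columns, as had most genes. The interval for 0 of 12 interferons reached 26.5% in each column. It held the background of 2.96% in EV A, 1.4% in EV B, 13.3% in sum A and 10.5% in sum B. Intervals of TNF superfamily ligands, chemokines and interleukins also held it in every column. The absence of interferon counts therefore could not be told from the background.

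The TNF receptor superfamily was the group with the largest detected share among those of more than 5 genes. It had a count for 7 of 19 genes (36.8%), beside 16.0% of genes with a symbol. All 7 were seen in the sums and none in an EV library. Of genes with a symbol, 2.96% had a count in EV A and 1.4% in EV B. The interval for 0 of 19 reached 17.6% in each EV library and held these values. In sum A, 6 of its genes (31.6%, interval 12.6% to 56.6%) had a count, and in sum B 4 (21.1%, 6.05% to 45.6%). Both intervals held the background of 13.3% and 10.5%. The group was picked out after the counts were seen. TNFRSF13B, which encodes TACI, a receptor of B cells, had 2 counts in each sum. TNFRSF18, which encodes GITR, a costimulatory receptor of T cells, and TNFRSF1B, the second TNF receptor, each had 2 in sum A and 1 in sum B. The other 4 of these genes had a single count in 1 of the sums. No member of this group passed 2 counts in any column, so the number of genes detected rests on few counts.

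Interleukin receptors were present with 8 of 39 genes. IL12RB1, a shared chain of the interleukin 12 and 23 receptors, had 1 count in sum A and 2 in sum B. IL15RA, which presents interleukin 15, had 3 and 0. IL17RA, a shared chain of interleukin 17 receptors, had 1 in each sum. IL1R2, a decoy receptor for interleukin 1, had 0 and 1. Apart from IL22RA1, with 20 counts, these genes had at most 3 counts in any column. Of 5 interferon receptor genes IFNGR1 alone had counts, 1 in each sum, and the growth factor receptors FLT3, CSF1R, CSF2RB and CSF3R had none.

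The ligands and receptors that pair with the detected genes were mostly at 0, as were most genes. For 19 of the 20 receptor genes with a count, 27 ligand genes known to bind them could be matched by symbol, and none of the 27 had a count in any column. Of all ligand genes in the family 7.62% had a count in some column, so few of the 27 would be detected at that rate. This included the genes of chemerin (RARRES2) for CCRL2, IL22 for IL22RA1 and IL22RA2, and CXCL12 for CXCR4. Of 8 ligand genes with a count, 7 had a listed receptor, and 1 of these had a count for it, IL16 with CD4. No receptor was listed for IL17D. For IL11, the receptor gene IL11RA could not be matched by symbol, so its count is not known, and IL6ST had 0 counts. These partners were listed after the detected genes were known. A count of 0 has an upper limit of 3 counts, and 25 of the 29 detected genes had no more than 3 counts in any column.

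Genes that act downstream of these receptors were also seen mainly in the sums, as were genes with a symbol in general. Of 28 JAK-STAT genes, 7 had a count in sum A (25%), 6 in sum B (21.4%) and none in the EV libraries. The highest were the interferon response factor gene IRF9 with 2 counts in each sum, SOCS3, a feedback inhibitor, and STAT3 with 2 and 1 each, and STAT5A with 3 and 0. Of 38 NF-kB and TNF receptor signalling genes, 10 had a count in sum A (26.3%), 6 in sum B (15.8%), 3 in EV A (7.89%) and none in EV B. TRAF6, the adaptor ligase of interleukin 1 and Toll-like receptors, led with 6 counts in EV A, 0 in EV B, 23 in sum A and 17 in sum B, which left 17 in each animal outside the EV library. TRAF3 had 4 and 2 in the sums, and the NF-kB subunit genes REL and RELB had 1 and 2, and 2 and 1. Of 29 genes of chemokine receptor signalling, 8 had a count in sum A (27.6%), 5 in sum B (17.2%) and none in the EV libraries. GRK6, a kinase that desensitises these receptors, had 12 and 10, and RGS1, a regulator of G protein signalling, had 8 in each sum. ARRB2, an arrestin gene, and PIK3R6, a regulatory subunit of phosphoinositide 3-kinase gamma, had 1 in each. Of 45 matched cytokine and receptor genes whose symbols fall outside the naming rule, 6 had a count in sum A (13.3%) and 4 in sum B (8.89%). Among them GHR, the growth hormone receptor gene, and TGFBR2, a receptor of transforming growth factor beta, had 1 in each sum, and LIFR, a chain of the leukaemia inhibitory factor receptor, had 0 and 1. The background was 13.3% for sum A, 10.5% for sum B, 2.96% for EV A and 1.4% for EV B. At such EV shares, lists of this length would hold few or no genes with an EV count. The shares of the 3 signalling lists were higher in value than the background in both sums, and those of the fourth list were near the background. No intervals were computed for these short lists, and most of their detected genes had 1 or 2 counts. Whether their shares differ from the background was not tested.

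Counts outside the EV libraries were low for most members. Once each EV count was taken off, sum A kept 153 counts over the family and sum B kept 142. Of the 29 genes, 9 had equal values left and 25 differed by at most 1 count, mostly at values of 0 to 2, where a gene present in 1 sum alone also differs by 1. In all, 10 of the 29 genes had a count in sum A alone and 7 in sum B alone. Of the 3837 genes with a symbol and a summed count, 1299 had it in sum A alone and 632 in sum B alone. Over all genes with a symbol and a summed count, 1498 of 3837 had equal values left and 3161 differed by at most 1. CCRL2 kept 103 and 101 counts and FLT3LG kept 20 and 21. The libraries behind the sums are not stated, so these counts were not assigned to a fraction.

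**Figure D4:**
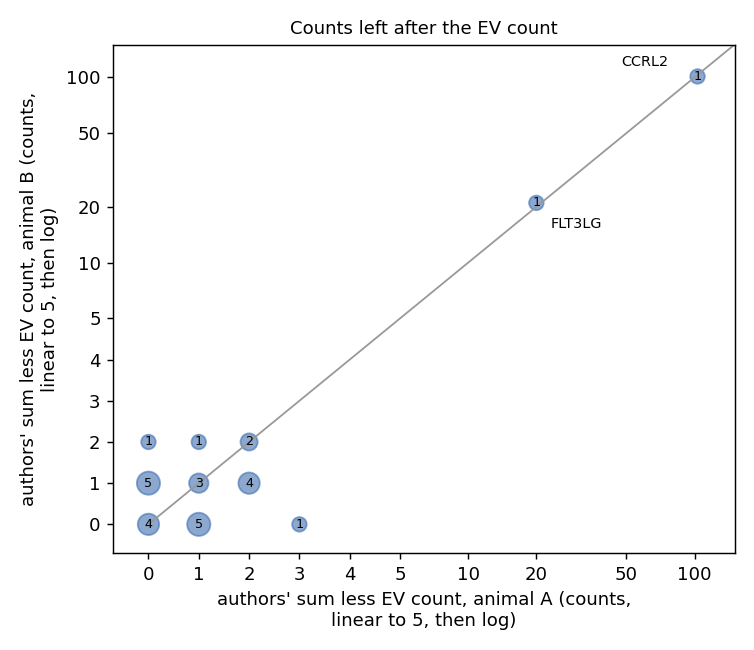
Counts left in the authors' sum after the EV count of the same animal was taken off, for animal A (horizontal) and animal B (vertical), both axes linear to 5 and logarithmic beyond, for 28 of the 29 genes with a count, with the grey line at equality and the number of genes printed in each point. CCRL2 at 103 and 101 and FLT3LG at 20 and 21 lie at the line, and most other genes lie between 0 and 2 on both axes.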

How the data were processed

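STAR is the aligner named per the submitters' processing notes. Its version, the annotation, the build and the way reads were counted are not given in the sources used here. The authors deposited raw counts per gene for the EV library of each animal, over 4642 genes, and summed counts per gene and animal, over 35432. Genes outside the EV table were set to 0 there; none of them had a summed count. The EV count was above the sum for 19 genes (animal A) and 12 genes (animal B), none of them members. The word sense stands in the authors' name for the table of sums and not in that for the EV table, so strand may have been treated differently, which would affect EV parts of a sum and the counts left. The authors also deposited input reads per library as counts and mapped reads as a percent of input, which entered no result. EV A had 2615337 input reads, of which 24.3% mapped uniquely, and EV B had 913091, of which 23.4% did. The gene totals of 10397 for EV A and 2842 for EV B were far below that. What the mapped reads outside the gene counts were is not known. Symbols matched 24186 genes. Gene neighbours came from RefSeq order and no coordinates were used, because the assembly differs or is not stated. Neighbours that could not be matched by symbol have no known count.

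Shares carry 95% Clopper-Pearson intervals and ratios of shares carry exact conditional binomial intervals, computed with SciPy 1.17.1. On data simulated with counting error alone, the ratio interval held the true ratio for 791 of 793 genes. The simulation had no PCR copies and no variation between libraries beyond the set ratios. It therefore checks the computation and not how well the intervals hold on these libraries. Detection means at least 1 count. There is 1 EV library per animal, so no test between conditions could be run. The members and lists were chosen with earlier results of these data known. Named genes are those with an EV count, the 12 ligands and 12 receptors with the highest mean share of the sums (8 ligands had any), FLT3, up to 4 genes of each signalling list, and genes within 2 places of the 3 leading members. Some genes that the rule would name are not reported here. XCR1, IL1B, IL6, CXCL8, the growth factor receptors, marker genes and partner genes were named after their values were seen. Of the other marker lists, erythroid and hepatocyte genes had no EV count (0 of 6 and 0 of 9), nor had platelet (0 of 10) or neutrophil and monocyte genes (0 of 10), and endothelial genes had 1, from NOS3 in animal A. In sums A and B, endothelial genes had a count for 7 and 6 of 9. Neutrophil and monocyte genes had 2 in each sum, platelet and hepatocyte genes 1 in each, and erythroid genes 0. Whether these shares differ from those of genes with a symbol was not tested.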

Additional observations from a re-analysis of the deposited data

How the results depend on the processing

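Detected genes fell with the minimum. At 2 counts the family had 3 genes in the EV library of A and 2 in that of B, and 11 and 8 in the sums; ligands had 1 and 0 in the EV libraries and 3 in the sum of A; receptors had 7 and 4 in the sums. At 10 counts the family had 2 genes in each EV library and 2 and 3 in the sums; ligands had 1 and 0 in the EV libraries and 1 in each sum; receptors had 1 in the EV library of A and 1 and 2 in the sums. Thinned to the total of the EV library of B, that of A would hold 3.02 genes on average, 1.27 ligands and 1.75 receptors. Without the feature with most counts in the denominator, the family held 15.7% and 3.15% of the EV counts of A and B, and 2.79% and 0.531% of the sums (1.92% and 0.345% with all genes); with genes with a symbol alone, 20.3%, 5.03%, 3.28% and 0.616%. Without FLT3LG it held 0.346% of the EV counts of A and 0.269% of its sum, and EV counts were 21.3% of that sum. Without FLT3LG and CCRL2, an alternative chosen after seeing the data, EV counts were 11.8% of the sum in A and 52.4% in B. Leaving out 1 EV library gave a mean EV share between 1.62% and 10.1%. The remaining 41 values for the family and its roles stayed within 1.5 times or within their interval or SD. Those with strict or wider membership were among them. Some of the 41 could not have moved and show no stability. With 2 EV libraries, the mean with 1 left out always lies within the SD. Strict membership dropped only genes without an EV count, and no member had an EV count above its sum. No paired analysis was possible because gene counts were analysed for 1 fraction of each animal. Depth limits what a count of 0 can show, and no value has a replicate of the same animal and fraction.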
